A study of Mus musculus with 15 samples.

Results

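The 9 genes described here encode parts of the transforming growth factor beta (TGF-beta) pathway: the ligands Tgfb1, Tgfb2 and Tgfb3, the receptors Tgfbr1 and Tgfbr2, the SMAD corepressor Skil, and Ccn1, Ccn2 and Thbs1, 3 secreted matricellular proteins whose transcription TGF-beta can raise. They were chosen by name, and all 9 were present among the 54343 gene entries of the MC38 table and the 55303 entries of the B16-F10 table. Messenger RNA had been sequenced in 15 libraries of 2 cultured mouse tumour lines, and values are FPKM, a fragment count scaled to gene length and to library depth, so that levels of different genes can be compared within a library. MC38 was represented by 4 wild-type libraries and by 3 libraries of cells with stable retroviral overexpression of murine Ssbp4 from pMSCV-IRES-EGFP, a vector that also carries a green fluorescent protein. No MC38 group with the empty vector is analysed here, so the transduction and the added Ssbp4 cannot be told apart. B16-F10 was represented by 4 libraries labelled wild type, and the protocol names a control guide RNA against an intergenic region as counterpart of the mixture of guide RNAs against Ssbp4 that, with Cas9 nuclease, was electroporated into the cells of the 4 knockout libraries. The protocol describes no selection of single clones. No source used here says whether a group's libraries derive from independent cultures, and every p-value here therefore speaks only to variation among the sequenced libraries, which could be technical.

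TGF-beta ligands are secreted in a latent complex and, once released, bind Tgfbr2, which recruits and phosphorylates Tgfbr1. Tgfbr1 then activates Smad2 and Smad3, which enter the nucleus with Smad4, while Skil and its relative Ski hold SMAD target genes down. In tumours the pathway is known for matrix production, for the mesenchymal state of carcinoma cells and for suppression of immune cells. Ccn1 and Ccn2 are also classical targets of the YAP and TEAD transcription factors and of serum response factor, and the Thbs1 protein can release TGF-beta from its latent form.

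The spacing of low values put the depth of the MC38 libraries at 32.6 to 38.5 M fragments each, and that of the B16-F10 libraries at 32.6 to 48.9 M. Ssbp4 followed the labels, at 13.2 to 17.6 FPKM in wild-type and 462 to 581 FPKM in overexpressing MC38 (limma, Benjamini-Hochberg adjusted p = 1.12e-09). It stood at 32.4 to 37.4 FPKM in wild-type and 19.0 to 24.3 FPKM in knockout B16-F10 (limma, Benjamini-Hochberg adjusted p = 0.00869), so 64.1% of the transcript level remained after editing. The tissue label is melanoma for both lines, whereas MC38 is known as a colon adenocarcinoma line. In MC38 the 10 melanocyte markers summed to 74.3 to 79.1 FPKM, nearly all of it from Gpnmb, at group means of 74.4 and 76.8 FPKM. Mitf stood at 1.08 and 0.752 FPKM, the other 8 were under 1 FPKM, and of these Mlana and Gpr143 were at 0 in every library. Epithelial markers were low there, with 2 of 9 at a mean of at least 1 FPKM in wild type and Cdx2 at 0. In B16-F10 all 10 melanocyte markers stood at a mean of at least 1 FPKM in both groups. Wild-type B16-F10 libraries did not form one cluster: along principal component 1, which carried 42.8% of the variance, libraries 1 and 2 lay at -9.42 and -10.3 and libraries 3 and 4 both at 17.8, with the knockout libraries between -7.81 and -1.91. This spread enters every B16-F10 comparison given here.

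In MC38 the first comparison asked which of the 9 genes differed with Ssbp4 overexpression. Tgfb3, Tgfbr1, Tgfbr2, Ccn1 and Thbs1 rose, 5 of the 7 members that reached the mean of 1 FPKM required for testing, and 0 fell. Tgfb3 rose most, 2.45-fold by group means, and the other 4 rose by 1.24-fold to 1.47-fold. Over all 10748 tested genes 47.5% passed an adjusted p of 0.05 (limma on log2(FPKM + 1), Benjamini-Hochberg), 23.9% higher and 23.6% lower, so calls were common in this line in both directions. The median log2 fold change was 0.42 over the 7 tested members and -0.01 over all tested genes. The groups of 5 members did not overlap, all with overexpression above wild type, as was the case for 25.5% of all tested genes.

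**Figure D1:**
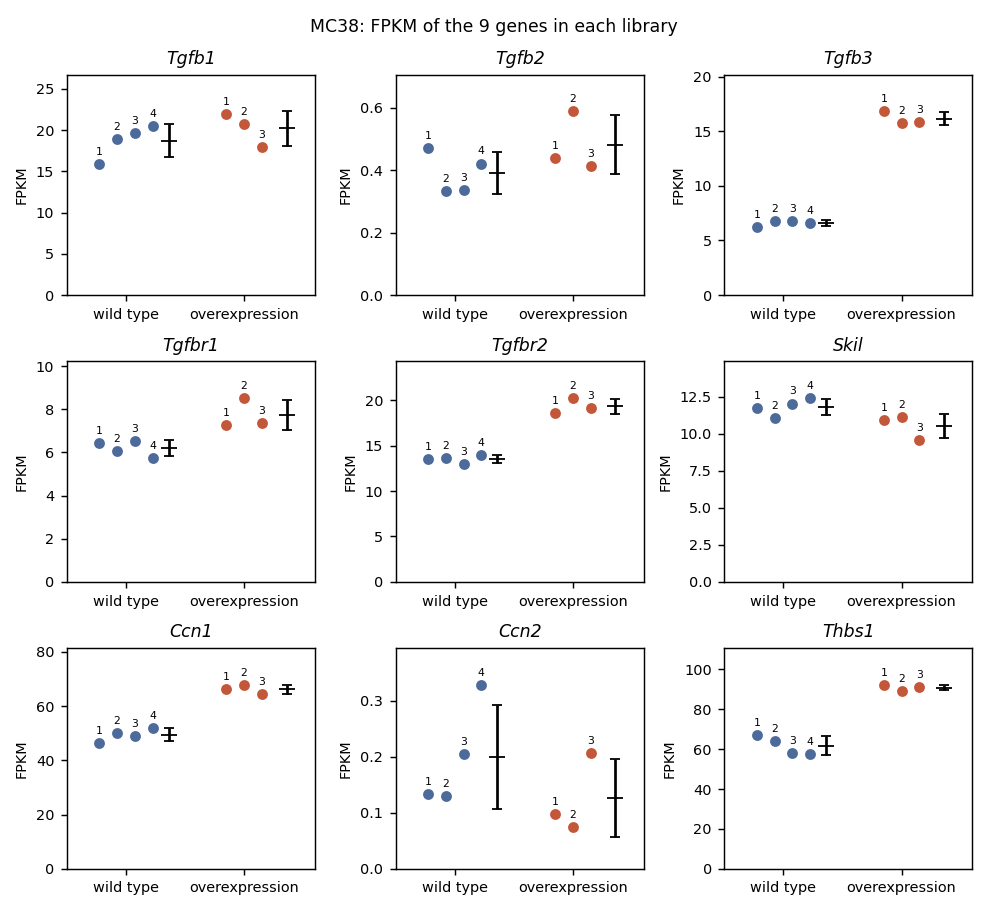
FPKM of each of the 9 genes in MC38, with one point per library numbered by replicate, for 4 wild-type (blue) and 3 overexpressing (red) libraries, and the mean ± SD in black; each vertical axis starts at 0. The overexpressing libraries lie above every wild-type library for Tgfb3, Tgfbr1, Tgfbr2, Ccn1 and Thbs1, and the groups overlap for the other 4 genes.

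Among the ligands, Tgfb1, the most widely expressed isoform, was the most abundant in wild-type MC38. It stood at 15.9, 18.9, 19.7 and 20.5 FPKM in wild-type libraries 1 to 4 and at 22.0, 20.8 and 17.9 FPKM in overexpressing libraries 1 to 3. The groups overlapped, and the log2 fold change of 0.11 (SE 0.09) did not pass (adjusted p = 0.349), with a 95% interval of -0.09 to 0.30. It was 0.03 without wild-type library 1, 0.05 without overexpressing library 1 and 0.19 without overexpressing library 3, and passed in none of the 7 fits that left out a library. Tgfb3, the isoform best known from palate development, stood at 6.21, 6.75, 6.78 and 6.59 FPKM in wild type and at 16.8, 15.7 and 15.9 FPKM with overexpression. Every overexpressing library was above every wild-type library, and the fitted difference of the groups was 1.18 on the log2(FPKM + 1) scale (adjusted p = 6.19e-08, SE 0.05). Of all tested genes, 1.64% rose by at least 2-fold on this scale. Tgfb2 was close to silent in this line, at 0.332 to 0.471 FPKM in wild type and 0.415 to 0.589 FPKM with overexpression, and was not tested for its low level.

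The make-up of the ligand pool differed between the groups, as given by each ligand's share of the summed FPKM of the 3 ligands, a value per length. Tgfb3 made up 27.6, 26.0, 25.3 and 24.0% in wild-type libraries 1 to 4 and 42.9, 42.4 and 46.4% in overexpressing libraries 1 to 3. Tgfb1 made up 72.7% ± 1.75 (SD, n = 4) in wild type and 54.8% ± 2.10 (SD, n = 3) with overexpression. Summed over the ligands, FPKM averaged 25.7 ± 2.19 without and 36.8 ± 2.52 with overexpression (SD, n = 4 and 3). These shares are descriptions and were given no test.

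**Figure D2:**
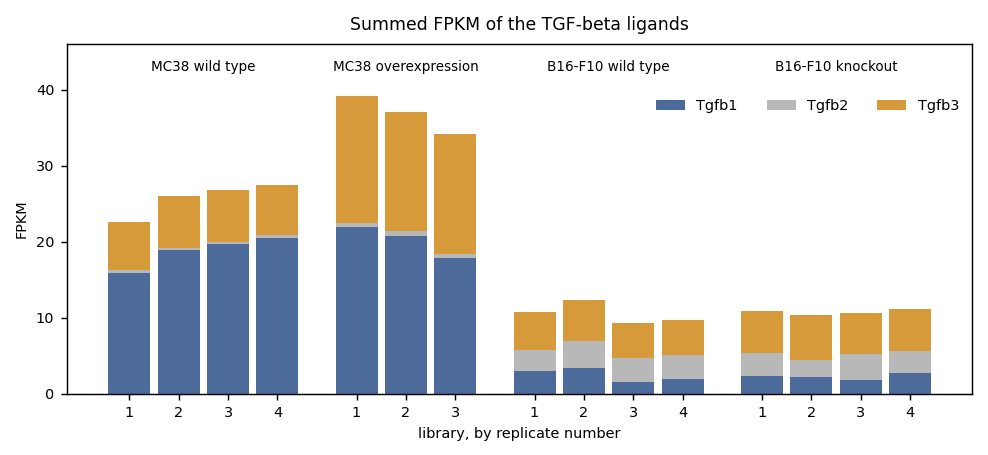
Stacked bars of the FPKM of Tgfb1 (blue), Tgfb2 (grey) and Tgfb3 (orange) in each of the 15 libraries, by group and replicate number; the axis starts at 0, and the tables of the lines were made separately. Tgfb3 takes 24.0 to 27.6% of the bar in wild-type MC38 and 42.4 to 46.4% with overexpression, and in B16-F10 it is the largest part of every bar.

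Both receptors rose. Tgfbr2, the receptor that binds the ligand first, stood at 13.5, 13.6, 13.0 and 14.0 FPKM in wild-type libraries 1 to 4 and at 18.6, 20.2 and 19.2 FPKM with overexpression, with no overlap. The fitted difference was 0.48 on the log2 scale (adjusted p = 1.59e-05, SE 0.05). Tgfbr1, the signalling partner, stood at 6.45, 6.07, 6.52 and 5.75 FPKM in wild type and at 7.25, 8.51 and 7.37 FPKM with overexpression, also without overlap. Its difference of 0.27 on the log2 scale (adjusted p = 0.00771, SE 0.07) was the smallest among the 5 members that rose, and overexpressing library 2 was the highest. Transcripts of Tgfbr2 exceeded those of Tgfbr1 per length by 1.99 to 2.43 times in wild-type libraries and by 2.38 to 2.60 times with overexpression, so the ratio overlapped between the groups.

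The start regions of the called members that have an entry in the RefSeq promoter table on GRCm38.p6 are shown here because these 3 genes rose together. That build is earlier than the GRCm39 of the authors, and 5 of the 9 genes matched an entry by symbol. Each line gives the 250 bases before the annotated start, written 5′ to 3′ on the strand of the gene, at chr3:145649986-145650235 (minus strand) for Ccn1, chr4:47352972-47353221 (plus strand) for Tgfbr1, of whose 2 windows the upstream one is shown, and chr9:116175364-116175613 (minus strand) for Tgfbr2. Capitals mark matches on either strand to GGAATG, the TEAD element, which reads CATTCC on the other strand, to CAGAC, the SMAD element, to GGGCGG, the GC box, which reads CCGCCC on the other strand, and to TATAAA, the TATA box.
Ccn1: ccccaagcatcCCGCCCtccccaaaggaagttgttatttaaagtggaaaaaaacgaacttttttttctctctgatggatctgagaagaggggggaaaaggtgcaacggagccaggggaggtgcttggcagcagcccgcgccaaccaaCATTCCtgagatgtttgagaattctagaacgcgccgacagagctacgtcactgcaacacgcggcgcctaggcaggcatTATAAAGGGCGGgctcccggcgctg
Tgfbr1: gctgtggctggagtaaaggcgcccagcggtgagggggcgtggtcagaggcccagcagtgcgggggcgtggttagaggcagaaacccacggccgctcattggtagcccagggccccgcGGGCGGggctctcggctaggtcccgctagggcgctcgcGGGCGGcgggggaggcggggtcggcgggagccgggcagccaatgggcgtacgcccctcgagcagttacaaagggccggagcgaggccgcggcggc
Tgfbr2: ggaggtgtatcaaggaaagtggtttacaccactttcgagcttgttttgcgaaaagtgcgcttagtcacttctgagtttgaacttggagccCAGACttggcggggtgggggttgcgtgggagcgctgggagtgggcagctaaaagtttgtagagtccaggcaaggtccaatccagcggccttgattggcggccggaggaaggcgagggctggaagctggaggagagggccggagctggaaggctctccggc
The Ccn1 window held 1 TEAD match, 103 to 98 bases before the start, and a TATA box 25 to 20 bases before it that adjoins a GC box. Another GC box lay 239 to 234 bases before the start, on the opposite strand. The Tgfbr1 window held 2 GC boxes and the Tgfbr2 window 1 SMAD element, 160 to 156 bases before the start. The Tgfbr1 window that is not shown held a SMAD element, 203 to 199 bases before its start. Among the 32851 windows of 250 bases that RefSeq supplied, 12.6% held the TEAD element, 42.2% the SMAD element, 32.7% the GC box and 12.4% the TATA box. No motif was present in all 3 windows shown. TGANTCA, the AP-1 element, was also searched on both strands, had no match in them and occurred in 6.75% of all windows. A match describes letters, not binding.

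Skil, the corepressor that SMAD signalling itself induces as feedback, stood at 11.7, 11.1, 12.0 and 12.4 FPKM in wild type and at 10.9, 11.1 and 9.57 FPKM with overexpression. The groups overlapped narrowly, and the log2 fold change of -0.15 (SE 0.06) did not pass (adjusted p = 0.0607). It passed in 3 alternatives, with median-of-ratios scaling (adjusted p = 0.0486), with library weights (adjusted p = 0.0432) and without wild-type library 2 (adjusted p = 0.0416).

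Of the matricellular genes, Thbs1 and Ccn1 were the most abundant members in MC38 and Ccn2 the least. Thbs1, thrombospondin 1, stood at 67.1, 64.1, 58.0 and 57.7 FPKM in wild type and at 92.0, 89.4 and 91.1 FPKM with overexpression. The lowest overexpressing library was well above the highest wild-type library, and the log2 fold change of 0.55 had an adjusted p of 1.90e-05. Ccn1, an integrin ligand, stood at 46.3, 50.2, 48.8 and 52.1 FPKM in wild type and at 66.2, 67.7 and 64.5 FPKM with overexpression. Here too the groups did not overlap (log2 fold change 0.42, SE 0.04, adjusted p = 3.06e-05). Its paralog Ccn2, connective tissue growth factor, was almost absent from MC38, at 0.131 to 0.328 FPKM in wild type and 0.0752 to 0.206 FPKM with overexpression, and was not tested. Of the CCN family, Ccn1 and Ccn3 rose and Ccn4 fell among 3 tested members. Ccn3 went from 0.957 ± 0.0613 to 3.25 ± 0.257 FPKM (SD, n = 4 and 3), and it passed the filter through its level in the overexpressing libraries. Ccn4 fell by 0.17 on the log2 scale (adjusted p = 0.0338) but passed in only 2 of 7 fits that each left out a library.

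By level per length, the order in wild-type MC38 was Thbs1, Ccn1, Tgfb1, Tgfbr2, Skil, Tgfb3, Tgfbr1, Tgfb2 and Ccn2. Only Tgfb3 and Tgfbr1 had overlapping ranges among neighbours in that order. With overexpression Tgfb3 moved above Skil, and the neighbours that overlapped were Tgfb1 and Tgfbr2.

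**Figure D3:**
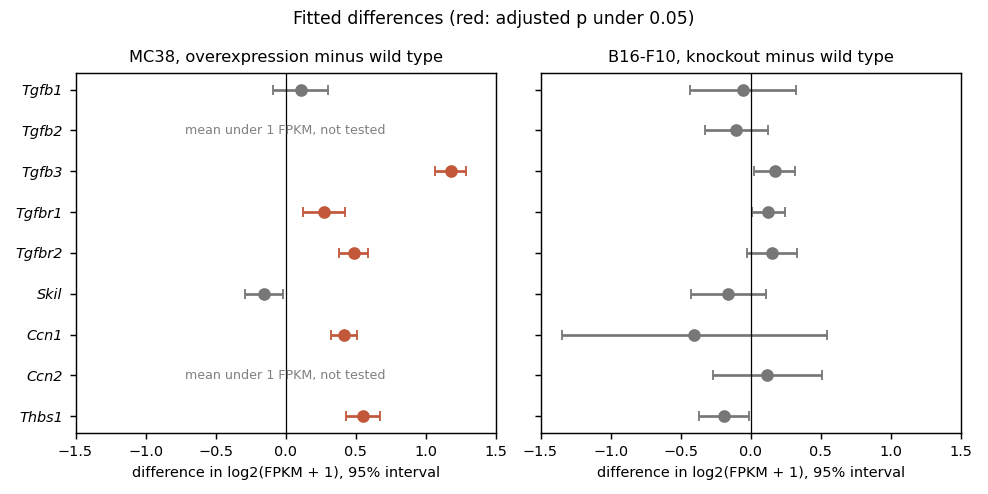
Fitted difference in log2(FPKM + 1) of each of the 9 genes, overexpression minus wild type in MC38 (left) and knockout minus wild type in B16-F10 (right), with 95% intervals from limma; red points passed an adjusted p of 0.05. In MC38 5 genes lie above 0 in red, with Tgfb3 at 1.18, and in B16-F10 none passed, with the widest interval for Ccn1.

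The rest of the pathway in MC38 went both ways. Each count of called genes given below for this line stands beside 23.9% higher and 23.6% lower over all tested genes. Co-receptors and decoys had 3 tested members of 8, of which 2 rose. Tgfbr3, betaglycan, which presents ligand to Tgfbr2, went from 12.2 ± 0.556 to 26.7 ± 1.44 FPKM (log2 fold change 1.07). Cd109, a surface protein that binds the receptors, went from 0.637 to 1.72 FPKM and passed the filter through its level with overexpression. Latency and activation genes had 14 tested members, of which 6 rose and 2 fell, and 1 of the 6, Ltbp1, passed in only 1 of 7 fits that left out a library. The rises included Fbn1, the fibrillin to which latent complexes attach, from 18.1 ± 2.70 to 56.4 ± 2.31 FPKM, and Mmp9, a protease, from 8.54 to 17.4 FPKM. The proteoglycan Dcn, which binds TGF-beta, went from 65.6 ± 2.61 to 320 ± 2.49 FPKM (SD, n = 4 and 3), the largest rise of that list. The latent TGF-beta binding proteins Ltbp4 and Ltbp3 fell, by 0.75 and 0.23 on the log2 scale.

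SMADs and their regulators had 18 tested members, of which 11 fell and 2 rose, with a median log2 fold change of -0.17. Over all tested genes 23.6% fell and 23.9% rose. Of the 11 that fell, 7 passed in every one of the 7 fits that left out a library, while Smad2 passed in 6, Zfyve9 in 3, and Smurf2 and Fkbp1a in 2 each. Smad7, the inhibitory SMAD that TGF-beta induces, went from 9.67 ± 0.684 to 7.27 ± 0.430 FPKM (-0.37), while Smurf1, a ubiquitin ligase for SMADs and receptors, fell by 0.37 and the corepressor Tgif2 by 0.45 on the log2 scale. The 2 that rose were Pmepa1, from 2.83 to 4.52 FPKM, and Ldlrad4, from 1.64 to 2.41 FPKM, both TGF-beta induced inhibitors of SMAD signalling. Smad3 did not pass, at 13.8 and 13.9 FPKM.

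Target genes outside the members had 16 tested genes, of which 8 rose and 4 fell, at a median log2 fold change of 0.28, and 1 of the 4, Timp1, passed in only 2 of 7 such fits. Bhlhe40, a transcriptional repressor, rose from 7.20 to 20.5 FPKM, the tropomyosin Tpm1 from 364 to 619 FPKM and the cell cycle inhibitor Cdkn2b from 18.7 to 31.3 FPKM. Snai2, a transcription factor of the mesenchymal state, fell by 1.39 on the log2 scale. Its relative Snai1 rose, from 17.8 to 23.7 FPKM (0.41 on the log2 scale). Among targets of the pathway Smad7 thus fell while Pmepa1 and Cdkn2b rose. In the activin and nodal branch 3 of 6 tested genes rose, among them the activin subunit Inhba, from 16.8 to 25.4 FPKM, and 2 fell, the activin receptor Acvr2a (-0.53) and Fstl3 (-0.26), the latter passing in only 1 of 7 fits that left out a library.

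YAP and TEAD genes had 19 tested members, of which 4 rose and 8 fell, and of the 8 Lats1 passed in 6 and Lats2 in 4 of the 7 fits that left out a library. The factors Tead4 and Wwtr1 rose, from 11.6 to 17.2 and from 79.2 to 107 FPKM, as did F3, tissue factor, by 0.30 on the log2 scale. The targets Ankrd1, from 50.2 ± 0.799 to 27.8 ± 0.245 FPKM, and Crim1 (-0.52) fell, as did the cofactor Vgll3 (-0.67), so Ccn1 rose while other targets of the same factors fell. Of 12 tested genes of serum response factor and its cofactors 3 rose, namely Vcl (0.85), Tagln2 (0.59) and Actg1 (0.38), and 2 fell, Fosl1 (-0.42) and Egr1 (-0.37). The list of thrombospondins and their receptors, which also holds the protease Adamts1, had 2 of 5 tested genes higher, Thbs1 and Adamts1 (0.14). It had 1 lower, Thbs3 (-0.23). Adamts1 passed in only 2 and Thbs3 in 5 of the 7 fits that left out a library. Thbs2, the close relative of Thbs1, did not pass, at 107 and 103 FPKM. Among other matricellular genes Spp1, osteopontin, rose from 41.9 ± 1.21 to 105 ± 1.58 FPKM, Fbln5 rose by 0.55 and Sparc fell by 0.19, out of 4 tested.

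**Figure D4:**
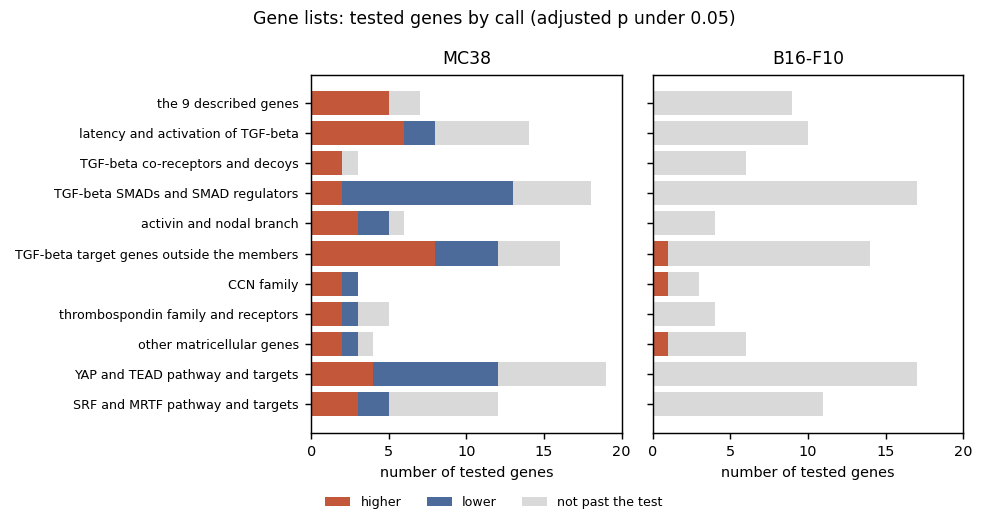
Number of tested genes in the 11 lists of the pathway and its neighbours that were higher (red), lower (blue) or not past an adjusted p of 0.05 (grey), in MC38 (left) and B16-F10 (right); some genes stand in more than one list. In MC38 the SMAD list has 11 lower and 2 higher of 18, where 23.6% of all tested genes were lower and 23.9% higher. In B16-F10 only 3 lists hold a called gene, 1 each.

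Markers of fibroblasts moved in the same libraries as the members of MC38, where 23.9% of all tested genes rose. Of 8 fibroblast markers 5 of the 6 tested rose, and 3 of the 5 passed in every one of the 7 fits that left out a library. Lum, from 0.219 to 2.19 FPKM, and Pdgfrb, from 0.424 to 1.88 FPKM, passed the filter only through their level with overexpression. The 8 markers summed to 178 to 187 FPKM in wild type and 495 to 508 FPKM with overexpression. Of the latter Dcn, also in the latency list, made up 320 FPKM. Pdgfra rose from 17.6 to 66.1 FPKM, while the 2 untested markers, Dpt and Thy1, stayed under 1 FPKM with overlapping groups. The epithelial keratin Krt8 rose from 3.22 to 9.45 FPKM and Krt18, which passed the filter only through its wild-type level, fell from 3.23 to 0.0607 FPKM. The other epithelial markers averaged under 1 FPKM and were not tested. Of these, Epcam (mean 0.846 to 0 FPKM), Cdh1 (0.306 to 0.0333 FPKM), Krt19 and Cldn7 were lower with overexpression, without overlap. Krt20 went the other way, from at most 0.0135 to at least 0.0538 FPKM, and Vil1 overlapped. Leukocyte markers summed to 2.24 to 3.04 FPKM in wild type and 3.64 to 4.38 FPKM with overexpression. Of these markers 7 were under 1 FPKM in every library, with Ptprc at most at 0.0187 and Cd3e at 0. The 1 tested marker, Cd68, was higher but did not pass in every fit that left out a library. Endothelial markers summed to 4.33 to 5.72 and to 2.94 to 3.63 FPKM, with the 1 tested marker lower, and the platelet markers Pf4 and Gp9 were at 0. In bulk samples more cells of a type and more RNA per cell cannot be told apart, and the part of these markers in the members' rises was not tested.

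In B16-F10 the second comparison asked whether the same 9 genes differed after editing of Ssbp4. None of the 9 passed an adjusted p of 0.05 in limma, and 0 passed under any of the 17 alternatives run. At an unadjusted p under 0.05 there were 3, Tgfb3, Tgfbr1 and Thbs1. Over all 10902 tested genes 2.23% passed, 1.33% higher and 0.899% lower, and 21.3% had an unadjusted p under 0.05. Of the calls 59.7% were higher, against 73.1% when libraries were scaled to a common total and 42.9% with median-of-ratios scaling. The median log2 fold change was -0.05 over the members and 0.02 over all genes. All 9 members reached the mean of 1 FPKM in this line.

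All 3 ligands of B16-F10 were detected, each at under 6 FPKM in every library. Tgfb3 stood at 4.98, 5.44, 4.51 and 4.64 FPKM in wild-type libraries 1 to 4 and at 5.57, 5.92, 5.42 and 5.57 FPKM in knockout libraries 1 to 4. The groups overlapped only through wild-type library 2 and knockout library 3, and the log2 difference was 0.17 (adjusted p = 0.172; 95% interval 0.03 to 0.31). Tgfb1 stood at 3.01, 3.31, 1.52 and 1.91 FPKM in wild type and at 2.30, 2.16, 1.84 and 2.67 FPKM in knockout, so that every knockout library lay inside the wild-type range, as for 26.3% of all tested genes (adjusted p = 0.892; interval -0.43 to 0.32). Its difference of -0.05 turned positive, at 0.01 to 0.07, without wild-type library 1 or 2 or knockout library 3. Tgfb2 stood at 2.75, 3.60, 3.21 and 3.12 FPKM in wild type and at 2.98, 2.26, 3.41 and 2.95 FPKM in knockout (adjusted p = 0.608; interval -0.33 to 0.13).

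Tgfb3 held the largest share of the summed ligand FPKM in both B16-F10 groups, 46.8% ± 2.11 in wild type and 52.3% ± 3.35 in knockout (SD, n = 4 and 4). Every knockout library, from 49.8 to 57.2%, was above every wild-type library, from 44.0 to 48.8%, and the share was given no test. In MC38 Tgfb1 held the largest share instead, in tables that were made separately.

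The receptor order was also the opposite of that in MC38, since Tgfbr1 exceeded Tgfbr2 in each of the 8 libraries, with Tgfbr2 at 0.495 to 0.562 times Tgfbr1 in wild type and 0.484 to 0.599 times in knockout. Tgfbr1 stood at 16.02, 15.95, 15.1 and 14.0 FPKM in wild type and at 16.9, 17.1, 17.1 and 15.98 FPKM in knockout. Only knockout library 4 reached into the wild-type range, and the log2 difference of 0.13 did not pass (adjusted p = 0.218; interval 0.01 to 0.25). Tgfbr2 stood at 9.01, 8.15, 7.49 and 6.97 FPKM in wild type and at 9.29, 8.33, 8.28 and 9.57 FPKM in knockout (log2 difference 0.15, adjusted p = 0.318; interval -0.03 to 0.33). The corepressor Skil stood at 5.54, 5.24, 3.69 and 4.03 FPKM in wild type and at 3.90, 3.60, 3.76 and 4.77 FPKM in knockout (log2 difference -0.16, adjusted p = 0.484; interval -0.43 to 0.11). Its wild-type libraries 1 and 2 were above all other B16-F10 libraries.

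**Figure D5:**
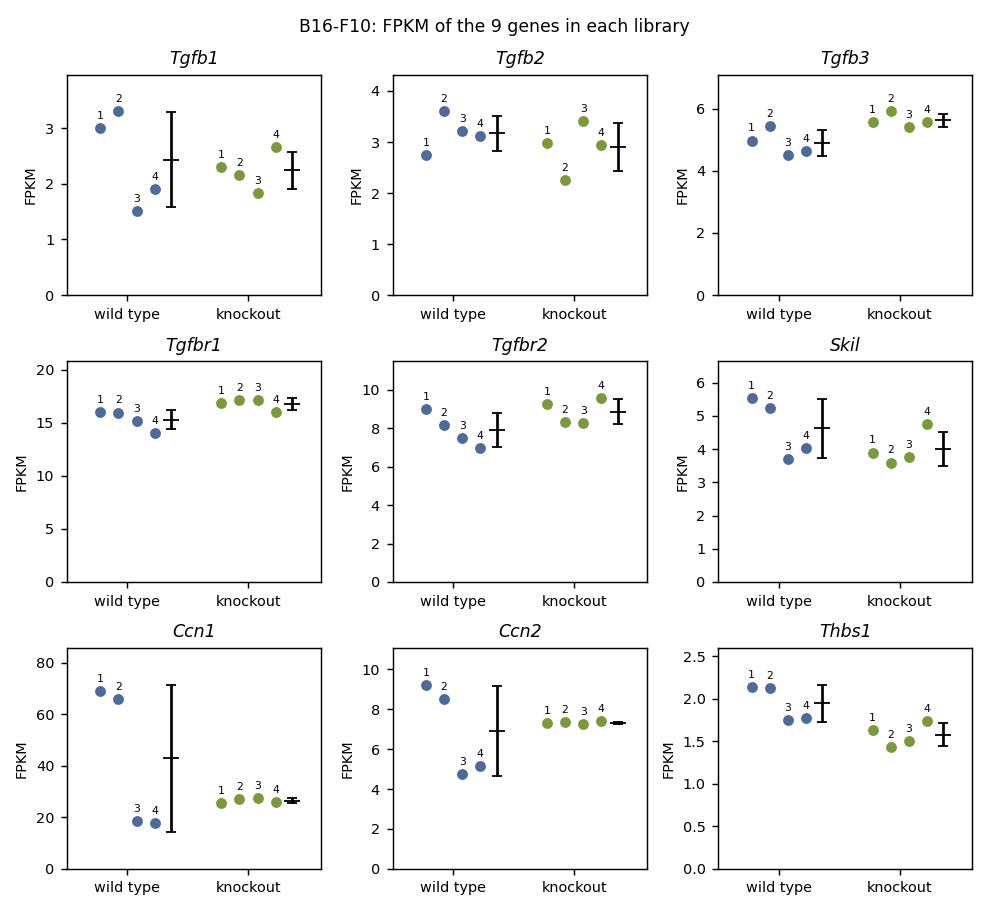
FPKM of each of the 9 genes in B16-F10, with one point per library numbered by replicate, for 4 wild-type (blue) and 4 knockout (green) libraries, and the mean ± SD in black; each vertical axis starts at 0. Wild-type libraries 1 and 2 lie above wild-type libraries 3 and 4 for 8 of the 9 genes, most for Ccn1, whose 4 knockout libraries sit between the pairs at 25.5 to 27.4 FPKM.

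Ccn1, whose start region is printed above, was the most abundant member in B16-F10 and the most uneven. It stood at 69.2, 65.8, 18.5 and 17.9 FPKM in wild-type libraries 1 to 4 and at 25.5, 27.0, 27.4 and 25.9 FPKM in knockout libraries 1 to 4. The highest wild-type library was 3.87 times the lowest, against 1.08 times in knockout, and all knockout libraries lay between the wild-type pairs. The SD of Ccn1 over wild-type libraries, 1.06 on the log2 scale, was larger than that of 99.8% of tested genes, whereas its knockout SD of 0.05 was larger than that of 21.3%. Knockout minus wild type was accordingly -0.40 (SE 0.42, adjusted p = 0.631), with an interval of -1.35 to 0.55. It was -0.08 without wild-type library 1 and -0.72 without wild-type library 4.

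Ccn2 was likewise higher in wild-type libraries 1 and 2 than in 3 and 4, at 9.22, 8.51, 4.76 and 5.16 FPKM in wild type and at 7.30, 7.34, 7.26 and 7.39 FPKM in knockout. The 4 knockout libraries were within 1.02 times of each other and inside the wild-type range, and the log2 difference was 0.12 (adjusted p = 0.742; interval -0.27 to 0.51). Without wild-type library 3 it was -0.02. Thbs1, abundant in MC38, was the lowest member here, at 2.14, 2.13, 1.75 and 1.77 FPKM in wild type and at 1.63, 1.43, 1.51 and 1.74 FPKM in knockout. It was the only member whose groups did not overlap, by a narrow margin between wild-type library 3 and knockout library 4, where 13.9% of all tested genes had groups that did not overlap and 5.32% had every knockout library below. Its log2 difference of -0.19 (SE 0.08) did not pass (adjusted p = 0.208; interval -0.37 to -0.01).

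By level per length, the order in wild-type B16-F10 was Ccn1, Tgfbr1, Tgfbr2, Ccn2, Tgfb3, Skil, Tgfb2, Tgfb1 and Thbs1. Neighbours from Tgfbr2 to Skil had overlapping ranges, as did those from Tgfb2 to Thbs1. The knockout libraries had the same order of means, with an overlap between neighbours only for Tgfb2 and Tgfb1.

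Wild-type libraries 1 and 2 were both above wild-type libraries 3 and 4 for 8 of the 9 members, all but Tgfb2, as was so for 35.8% of all tested genes, while 36.5% had both below. It also held for 11 of 11 tested genes of serum response factor and its cofactors, such as Egr1, at 9.77, 10.5, 3.16 and 3.30 FPKM, and Cnn2, at 31.3, 30.6, 10.2 and 10.4 FPKM, and for 10 of 14 tested TGF-beta target genes, such as Smad7, at 3.90, 4.22, 2.39 and 2.36 FPKM. It held for 10 of 17 tested YAP and TEAD genes, with F3 at 17.6, 17.8, 10.2 and 9.75 FPKM. The melanocyte markers shared it too, in 10 of 10, and their summed level was 13082 to 17128 FPKM in wild type and 16767 to 17302 FPKM in knockout. Fibroblast markers summed to 12.1 to 14.4 FPKM in wild type and 14.7 to 16.9 FPKM in knockout. There 1 of 2 tested rose but did not pass in every fit that left out a library. The pairs of wild-type libraries were singled out after their values were seen, so the counts are descriptions, and the part of what set these libraries apart in the members' levels was not tested.

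Elsewhere in the pathway few B16-F10 genes passed. Of the lists on latency, co-receptors, SMADs, activins, thrombospondins, YAP and TEAD, and serum response factor none held a called gene. Timp1, a metalloprotease inhibitor and TGF-beta target, rose from 7.88 ± 1.68 to 12.7 ± 0.790 FPKM (adjusted p = 0.0391). Ccn4, a relative of Ccn1, rose from 5.31 ± 0.423 to 8.00 ± 1.33 FPKM (adjusted p = 0.0498), and the matricellular Sparcl1 rose from 45.2 ± 12.7 to 82.9 ± 11.5 FPKM (adjusted p = 0.0467; SD, n = 4 and 4). These calls were fragile, since Timp1 passed in 3, Ccn4 in 1 and Sparcl1 in 1 of the 8 fits that each left out a library. Ccn4 was thus lower with overexpression in MC38 and higher with knockout in B16-F10, a difference between lines that was not tested because the tables were made separately. Mmp14, a surface protease that can activate TGF-beta, stood at 85.2 ± 5.64 and 100.3 ± 4.28 FPKM (SD, n = 4 and 4) and did not pass (adjusted p = 0.0629).

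Set side by side, the 5 members that rose in MC38 had B16-F10 log2 differences of 0.17 for Tgfb3, 0.13 for Tgfbr1, 0.15 for Tgfbr2, -0.40 for Ccn1 and -0.19 for Thbs1, of which 0 passed. The levels also differed between the lines in separately made tables: Thbs1 stood at 61.8 and 1.95 FPKM in wild-type MC38 and wild-type B16-F10, Tgfb1 at 18.7 and 2.44 FPKM, and Ccn2 at 0.200 and 6.91 FPKM. No test of the difference between the lines was made.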

How the data were processed

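Libraries were stranded and made from polyadenylated RNA, per the labels. For each line the authors deposited a table of FPKM values by gene symbol. The submitters' processing notes name GRCm39 and DESeq2, without versions, while aligner, counter and annotation were not given in the sources used here. Columns summed to between 482580 and 511160. Library names in the labels tied columns to samples, with 0 columns left over.

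Values were taken as log2(FPKM + 1), a scale that understates the change of low genes, and each line was fitted alone in limma 3.58.1 (R 4.3.3) with a trended variance prior, for genes that averaged at least 1 FPKM, with Benjamini-Hochberg adjustment over all tested genes. Group means, shares and ratios are of FPKM itself. The 9 members and the gene lists were chosen with earlier results of these data known. Pathway genes were named by a rule, up to 3 highest and 3 lowest called genes per list and line, or the 2 most abundant where none was called. Genes outside it were picked after their values were seen. Among them were Smad2, Zfyve9, Smurf2, Fkbp1a, Ltbp1, Lats1, Lats2, Snai1 and Timp1 in MC38, Smad3 and Thbs2. So were the B16-F10 values of Egr1, Cnn2, Smad7 and F3, and the markers. Some genes that the rule names are not reported here.

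Depth was estimated with lengths of single-transcript genes of GENCODE M21. Dividing low values by the step of 1 fragment gave numbers no more than 0.1 from whole in 80.5 to 85.4% of cases, too few to recover reads, so no count model was used. On fragment numbers rebuilt roughly from these values, replicates of a group had a chi-square of 8.83 to 58.8 for each degree of freedom, above sampling noise. Such an excess cannot tell separate cultures from technical repeats. Each library was kept as a sample. On simulated FPKM, limma recovered 91% of 1.5-fold and 99% of 2-fold changes in MC38 over 10748 genes, with 8.21% of calls false, and 81% and 97% in B16-F10 over 10902 genes, with 3.26% false. Noise was drawn independently for each gene and library there, without the pairs seen among wild-type B16-F10 libraries. Changes were planted in a far smaller share of genes than was called in MC38, so these rates need not carry over to the data. Alternatives changed the pseudocount, the filter, the scaling, the variance model, the library weights, a replicate block and the set of libraries. Figures were drawn with matplotlib 3.10.9.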

Additional observations from a re-analysis of the deposited data

Results flagged for a closer look

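Among 30 sets of 4 libraries examined, the 9 members and Ssbp4 in the 3 groups of 4, 1 held a library far from the others, where chance gives about 1 in 20. It was Ssbp4 in wild-type MC38, in which library 1 stood at 13.2 FPKM, below the next value of 17.0 FPKM by 0.873 of the group's range. Tgfb1, Tgfb3 and Ccn1 were also lowest in that library among wild-type MC38, at 15.9, 6.21 and 46.3 FPKM. Tgfb2 and Thbs1 were highest there instead, at 0.471 and 67.1 FPKM, and the remaining members were neither.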

How the results depend on the processing

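The 5 MC38 members that rose passed in each of the 7 fits that left out a library, and the count of called members ranged from 4 to 6 over all alternatives. Same-numbered libraries did not deviate together (correlations of -0.29 to -0.07 in MC38 and -0.30 to 0.17 in B16-F10), so the numbers were not taken as pairs. With a replicate block 4 MC38 members passed, Tgfbr1 having an adjusted p of 0.0514, and 0 of 9 in B16-F10, where Ssbp4 did not pass (adjusted p = 0.0890), and the counts over all genes went from 5107 to 3906 in MC38 and from 243 to 12 in B16-F10. The B16-F10 count over all genes was also 140 with a filter of 0.1 FPKM, 73 without a filter and 776 with library weights, whose estimation in this line stopped before it converged, and 23 (without knockout library 2) to 414 (without knockout library 4) when a library was left out. The cause was not tested. Leaving out a library gave a B16-F10 Tgfb1 log2 fold change of -0.193 to 0.0658 (0.0308 without wild-type library 1, 0.0658 without wild-type library 2 and 0.00649 without knockout library 3). For Ccn2 the log2 fold change was -0.0185 to 0.257, the former without wild-type library 3. Median-of-ratios scaling, library weights and the fit without wild-type library 2 added Skil in MC38. In MC38 Tgfb2 and Ccn2 were left out by the filter of 1 FPKM, and neither passed with a filter of 0.1 FPKM (adjusted p = 0.366 and 0.422) or with none (adjusted p = 0.370 and 0.459).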

Other observations

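The genes whose pattern over libraries was nearest to a member were taken from those with a mean of at least 5 FPKM, by the root-mean-square difference of centred log2(FPKM + 1). Over the 7 MC38 libraries the nearest to Ccn1 were Prdx4 (0.02), a peroxiredoxin of the endoplasmic reticulum, Actg1 (0.03), cytoplasmic gamma actin, and Shisa5 (0.03). The nearest to Thbs1 were Tagln2 (0.03), an actin-binding protein, Lmo7 (0.03) and Fbxo10 (0.04). Over the 8 B16-F10 libraries the nearest to Ccn1 were Prss12 (0.23), St3gal4 (0.31), a sialyltransferase, and Bcan (0.32), the proteoglycan brevican. Prss12 stood at 34.1, 35.3, 9.09 and 8.53 FPKM in wild-type libraries 1 to 4 and at 15.3 to 20.9 FPKM in knockout. The nearest to Ccn2 were Gabarap (0.05), Tcn2 (0.05) and Atp6v1b2 (0.05), of which Gabarap acts in autophagy, Tcn2 carries vitamin B12 and Atp6v1b2 is a subunit of the vacuolar proton pump. Near to Thbs1 were Cstf2 (0.02) and Akap1 (0.03). Such likeness says nothing of shared control.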
